A study of Mus musculus with 2 samples.

Results

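The CC chemokines described here are Ccl2, Ccl3, Ccl4, Ccl5, Ccl6, Ccl7, Ccl9 and Ccl24, 8 of 16383 genes in the single-cell count tables of mouse liver that were analysed. They were taken by name, and all 8 were measured. The mice were C57BL/6 males of 8 weeks, fed either a methionine- and choline-deficient (MCD) diet, which gives a model of non-alcoholic steatohepatitis (NASH), or a standard diet (control), for 6 weeks in both groups. The livers of 3 mice were pooled for each diet, dissociated with enzymes and captured on the BD Rhapsody platform, so each diet is 1 library. The MCD diet produces steatohepatitis without the obesity of the human disease, which limits it as a model. Cells with at least 500 UMIs (unique molecular identifiers, each standing for 1 captured transcript) and 200 genes were kept: 4209 of 4336 in the control library, with a median of 1683 UMIs, and 3710 of 3893 in the NASH library, with a median of 1654 UMIs. Levels are given as UMIs per 1000000 UMIs of the same cells (CPM) with the exact Poisson 95% interval, shares of cells with the exact binomial 95% interval, and both intervals cover counting error only. With 1 pooled library per diet there was no test between diets, and the spread between mice is unknown. Differences are described by size, 1.5-fold or more being called higher or lower among genes with at least 50 UMIs in both libraries together.

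CC chemokines are small secreted proteins named after a pair of adjacent cysteines, and they draw leukocytes through G protein-coupled receptors of the Ccr family. Ccl2 and Ccl7 act through Ccr2, which monocytes need to leave the bone marrow. Ccl3 and Ccl5 bind Ccr1. Ccl6 and Ccl9 are mouse chemokines that act on Ccr1, and Ccl24, also called eotaxin-2, acts on Ccr3 of eosinophils. In the liver, resident macrophages (Kupffer cells), recruited monocytes and lymphocytes are known sources.

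The sequence that gives the family its name is shown for each member, because it separates Ccl6 and Ccl9 from the rest by gene structure. The stretches are coding sequence from the GENCODE M21 transcripts (GRCm38), 48 bases each, with the codons of the adjacent cysteines in capitals.
Ccl2, chr11:82036488-82036535, plus strand, exon 2: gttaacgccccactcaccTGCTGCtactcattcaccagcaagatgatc
Ccl7, chr11:82046520-82046567, plus strand, exon 2: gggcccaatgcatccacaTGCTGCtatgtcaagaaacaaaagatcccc
Ccl3, chr11:83648628-83648675, minus strand, exon 2: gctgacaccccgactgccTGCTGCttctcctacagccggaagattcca
Ccl4, chr11:83663464-83663511, plus strand, exon 2: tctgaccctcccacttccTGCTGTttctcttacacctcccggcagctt
Ccl5, chr11:83529218-83529265, minus strand, exon 2: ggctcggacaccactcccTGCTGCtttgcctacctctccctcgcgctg
Ccl6, chr11:83589362-83589409, minus strand, exon 3: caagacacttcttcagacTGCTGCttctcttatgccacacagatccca
Ccl9, chr11:83575902-83575949, minus strand, exon 3: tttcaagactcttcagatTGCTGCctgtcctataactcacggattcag
Ccl24, chr5:135572641-135572688, minus strand, exon 2: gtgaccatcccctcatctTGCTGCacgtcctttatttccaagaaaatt

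Ccl6 and Ccl9 have 4 exons and carry the pair in the third, at codons 50 and 57. The other 6 have 3 exons and carry it in the second, at codon 33 or 34. All members but Ccl24 lie on chromosome 11, Ccl2 (chr11:82035571-82037453) beside Ccl7 (chr11:82045712-82047525), and Ccl5 (chr11:83525778-83530518), Ccl9 (chr11:83572919-83578636), Ccl6 (chr11:83587882-83593087), Ccl3 (chr11:83647844-83649355) and Ccl4 (chr11:83662584-83664683) in a second group. Ccl24 lies at chr5:135569937-135573049. The longest run of identical bases between the transcripts of 2 members was 25, for Ccl6 and Ccl9, followed by 23 for Ccl2 and Ccl7, so reads of these pairs could be exchanged only over short stretches.

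The RefSeq promoter windows at hand (GRCm38.p6) covered 3 of the 8 members, Ccl3, Ccl6 and Ccl9, and the promoters of the others were not searched. Of these, Ccl6 and Ccl9 are neighbours with different leading cell classes. The 250 bases before each start site were searched on both strands for GGGA and CC with any 4 bases between them (NF-kB), TGANTCA (AP-1), TTNNGNAA (C/EBP) and GAGGAA (PU.1), which 17.6%, 6.75%, 36.8% and 23.3% of 32851 promoters held. Ccl9 held 1 AP-1 and 2 C/EBP matches, Ccl3 held 1 C/EBP and 1 PU.1 match, and Ccl6 held none of the 4. The last 100 bases of the windows with matches follow, with the matches in capitals.
Ccl9, chr11:83578637-83578736, minus strand: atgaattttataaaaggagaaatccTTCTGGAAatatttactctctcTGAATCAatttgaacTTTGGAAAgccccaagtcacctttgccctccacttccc
Ccl3, chr11:83649379-83649478, minus strand: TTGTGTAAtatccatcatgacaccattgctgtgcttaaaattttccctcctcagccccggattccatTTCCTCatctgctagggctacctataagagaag

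The kept cells fell into 21 clusters, made with every Ccl gene left out of the variable genes so that the members did not shape the clusters. Clusters were named from marker lists, and 11 classes had at least 30 cells in each library: liver sinusoidal endothelial cells (LSEC), vascular endothelial cells (VEC), Kupffer cells, monocytes, neutrophils, conventional dendritic cells (DC), T cells, NK cells or ILC1, B cells, cholangiocytes and cycling cells. Class names stand for marker-based likeness. Plasmacytoid DC, plasma cells, hepatic stellate cells and hepatocytes were fewer, hepatocytes numbering 17. The share of kept cells in the monocyte class was 3.61% (3.07 to 4.22) in the control library and 9.68% (8.74 to 10.7) in the NASH library, and that of neutrophils was 10.6% (9.68 to 11.6) and 3.18% (2.64 to 3.80).

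With both libraries joined, the 8 genes divided among 4 leading classes. Neutrophils led for Ccl3, Ccl4 and Ccl6, monocytes for Ccl2, Ccl7 and Ccl9, NK cells or ILC1 for Ccl5, and Kupffer cells for Ccl24. In a finer clustering described below, Ccl7 was instead highest in a cluster named Cx3cr1 macrophage, split from the monocytes. For Ccl4 the joined level of neutrophils, 847 CPM (787 to 910), overlapped that of NK cells or ILC1, 787 CPM (693 to 889), and for Ccl2 that of monocytes, 124 CPM (109 to 140), overlapped that of cholangiocytes, 106 CPM (74.9 to 145). The order was not the same in the control library alone. There NK cells or ILC1 were above neutrophils for Ccl4 and, with overlapping intervals, for Ccl3, Ccl7 was found in Kupffer cells only, and Ccl2 was highest in cholangiocytes, where 1 cell held most of it, and then in Kupffer cells. The members gave 0.237% of all UMIs in the control library and 0.258% in the NASH library, and 44.2% and 45.9% of cells held at least 1 of their UMIs. Ccl5 and Ccl6 were the most abundant, with 11028 and 11004 UMIs in the control library and 7893 and 8514 in the NASH library, whereas Ccl7 had 12 and 44.

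**Figure D1:**
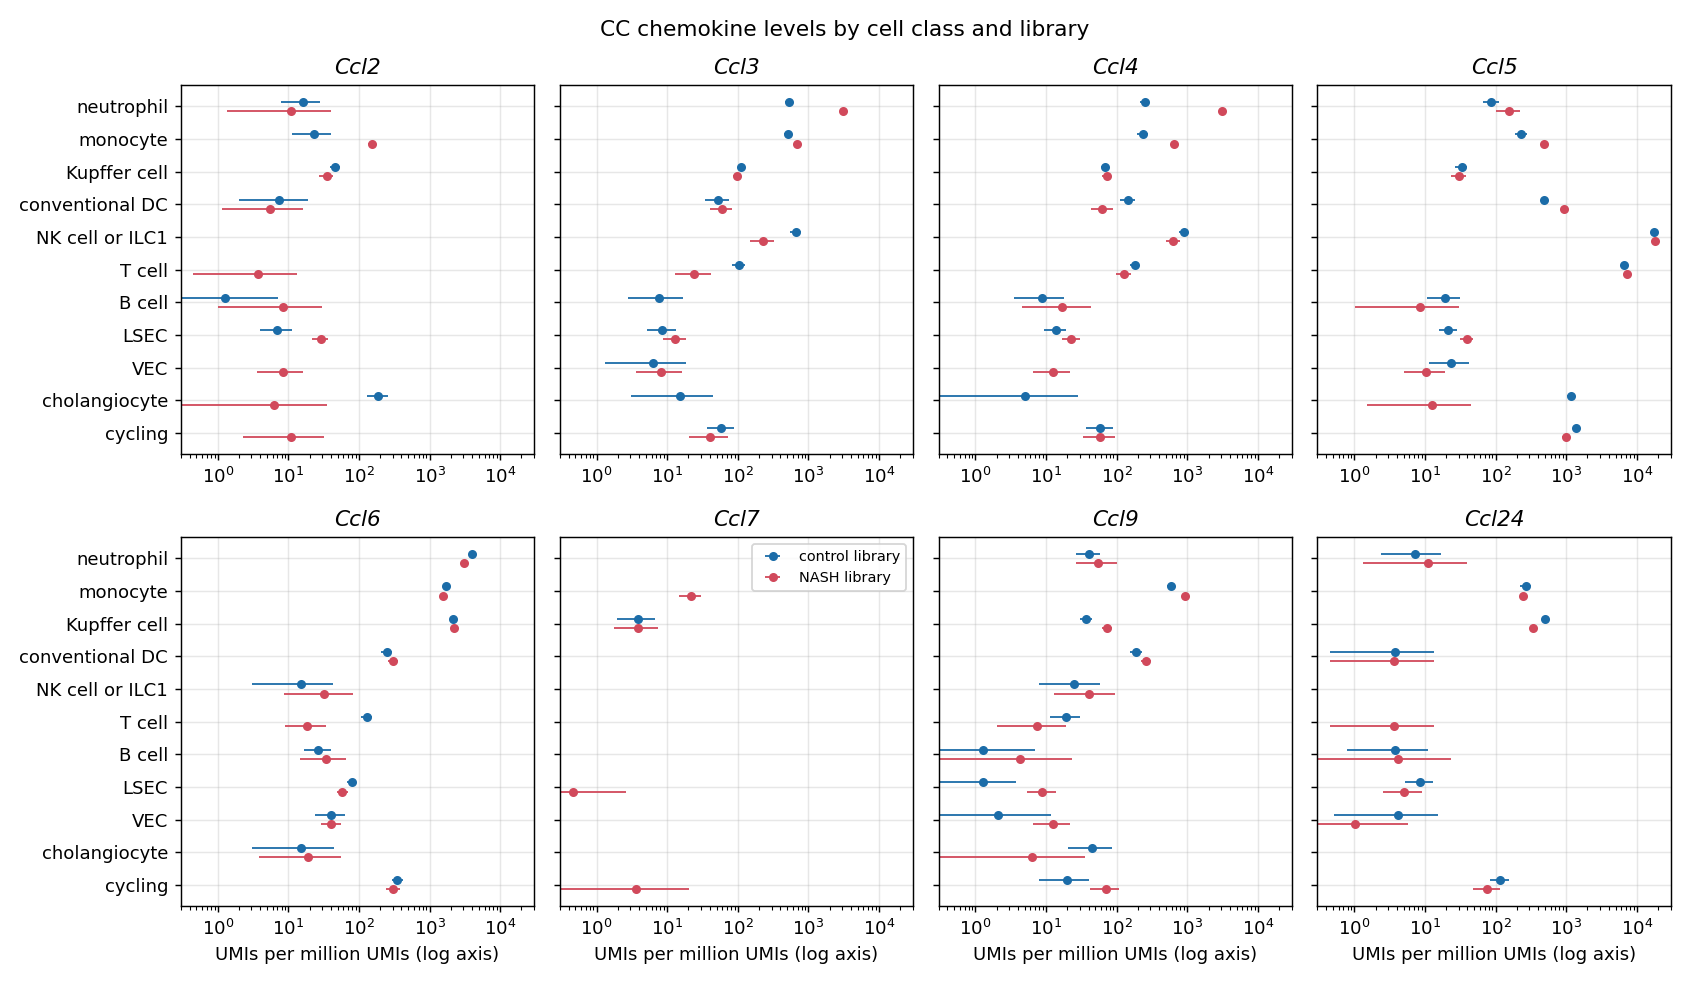
CPM (log axis) of each CC chemokine in the 11 classes with at least 30 cells in each library; points are libraries, bars are exact Poisson 95% intervals, and a library with no UMI has no point. Ccl5 reached 17282 and 17850 in NK cells or ILC1, while Ccl7 stayed at 21.4 or below in every class.

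Over all kept cells, 5 of the 8 members were at least 1.5-fold higher in the NASH library (6.65% of 8857 genes were) and none was lower (8.85% of genes were). The ratios are log2 of NASH to control. Ccl7 was 2.13 higher (1.23 to 3.23), Ccl9 1.95 (1.82 to 2.09), Ccl4 1.2 (1.09 to 1.31), Ccl2 1.12 (0.88 to 1.36) and Ccl3 0.91 (0.80 to 1.01). Ccl6 (-0.07), Ccl5 (-0.18) and Ccl24 (-0.29) differed by less than 1.5-fold.

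Holding the shares of the cell types fixed changed these ratios, for Ccl3 and Ccl4 in a direction that depended on the strata. UMIs per cell were standardised to the mean share of each cluster in both libraries. The log2 ratio of Ccl9 went from 1.83 to 0.72, that of Ccl3 from 0.79 to 0.36 and that of Ccl4 from 1.08 to 0.69. That of Ccl2 went from 1.00 to 0.57 and that of Ccl7 from 2.06 to 1.53. Ccl2 and Ccl3 were then under 1.5-fold, a log2 ratio of 0.585. With the wider classes as strata, the ratios of Ccl3 and Ccl4 rose instead, to 0.94 and 1.36. Those of Ccl2, Ccl7 and Ccl9 fell to 0.59, 1.60 and 0.91. By cluster, Ccl24 went from -0.41 to -0.78 and Ccl5 from -0.30 to 0.12.

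**Figure D2:**
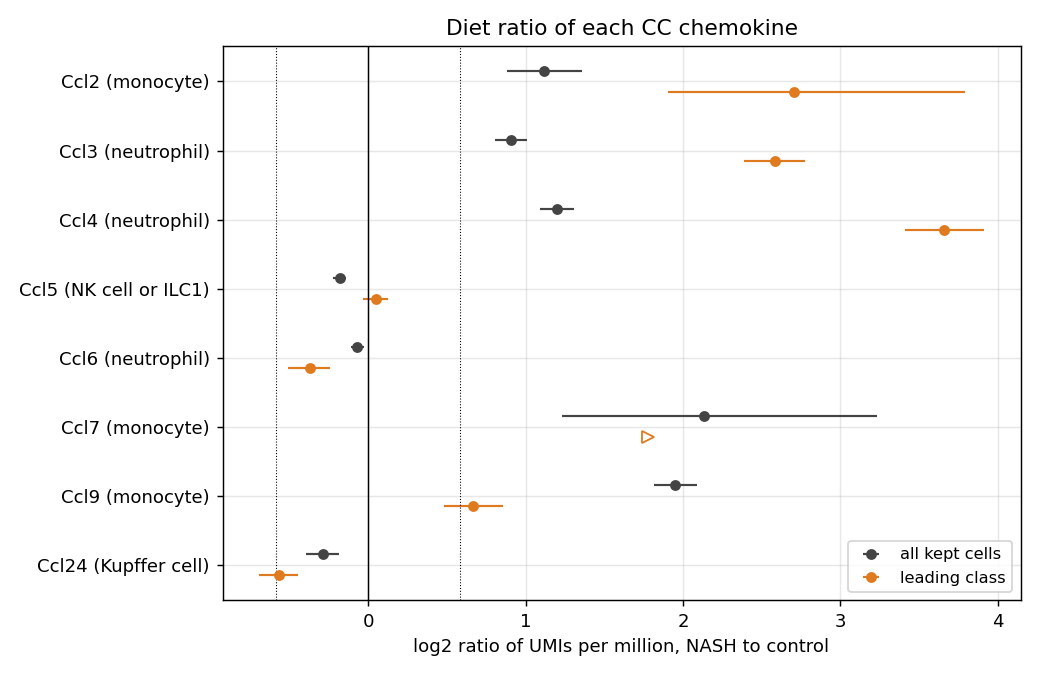
Log2 ratio of CPM, NASH to control, for each CC chemokine over all kept cells (grey) and in its leading class over both libraries (orange, named in brackets), with exact 95% intervals; dotted lines mark 1.5-fold. The open triangle is the lower bound for Ccl7 in monocytes, 1.78, since the control monocytes held no UMI; Ccl3 and Ccl4 in neutrophils stand at 2.58 and 3.66, beyond their whole-library ratios.

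Ccl2, the main attractant of Ccr2-bearing monocytes, had different main holders in the libraries. In the control library 62.9% (56.3 to 69.2) of its 229 UMIs lay in Kupffer cells and 4.80% in monocytes. In the NASH library 19.8% (16 to 24) of its 404 UMIs lay in Kupffer cells and 59.4% (54.4 to 64.2) in monocytes. Monocytes held 11 UMIs in 7 of 152 control cells and 240 UMIs in 50 of 359 NASH cells, or 22.8 CPM (11.4 to 40.8) and 155 CPM (136 to 176). The log2 ratio was 2.71 (1.90 to 3.79), and without the 10 richest cells of each library it was 1.81. Kupffer cells were at 45.7 CPM (38.6 to 53.8) and 34.7 CPM (27.5 to 43.2), intervals that overlap.

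A finer clustering (resolution 1.0 in place of 0.6) split the larger monocyte cluster into one led by F13a1, F10 and Fn1 and one led by Mmp13, Olfml3 and Cx3cr1. Ccl2 lay mostly in the F13a1 cluster, at 31.2 CPM in 72 control cells and 211 CPM in 221 NASH cells. The Cx3cr1 cluster, named Cx3cr1 macrophage from its markers, was at 26.5 and 42 CPM in 31 and 96 cells, and its interval for the ratio spans 0 (log2 0.49, -1.12 to 3.08).

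Endothelial cells held a small amount of Ccl2. LSEC were at 6.83 CPM (3.90 to 11.1) and 28.6 CPM (21.9 to 36.7), with 62 UMIs in 21 of 1545 NASH cells. The 3 richest of these cells held 18, 14 and 9 UMIs, and they carried 88, 114 and 65 UMIs of the LSEC markers. In control cholangiocytes, 36 of 37 Ccl2 UMIs came from 1 cell, so the class level of 185 CPM describes that cell, which held 97 UMIs of neutrophil markers beside 321 of cholangiocyte markers.

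Ccl7, which shares Ccr2 with Ccl2, was the rarest member. All 12 control UMIs lay in Kupffer cells, spread over 9 cells. In the NASH library 33 of 44 lay in monocytes, where 7 cells held them and 1 cell held 20. Control monocytes held no UMI in 152 cells, so the NASH level of 21.4 CPM (14.7 to 30.0) was at least 3.43-fold higher against a floor of 3 UMIs. Kupffer cells were at 3.81 CPM (1.97 to 6.65) and 3.90 CPM (1.79 to 7.41), intervals that overlap. In the finer clustering described above, 21 of the 33 UMIs lay in 2 cells of the Cx3cr1 cluster, among them the cell with 20. The F13a1 cluster held 12. With both libraries joined, the Cx3cr1 cluster was at 40.6 CPM (25.1 to 62.0) and the F13a1 cluster at 9.22 CPM (4.76 to 16.1). The richest cell carried 200 UMIs of Cx3cr1 macrophage markers beside 55 of monocyte markers. The next carried 84 of lipid-associated macrophage markers beside 9 of monocyte markers.

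**Figure D3:**
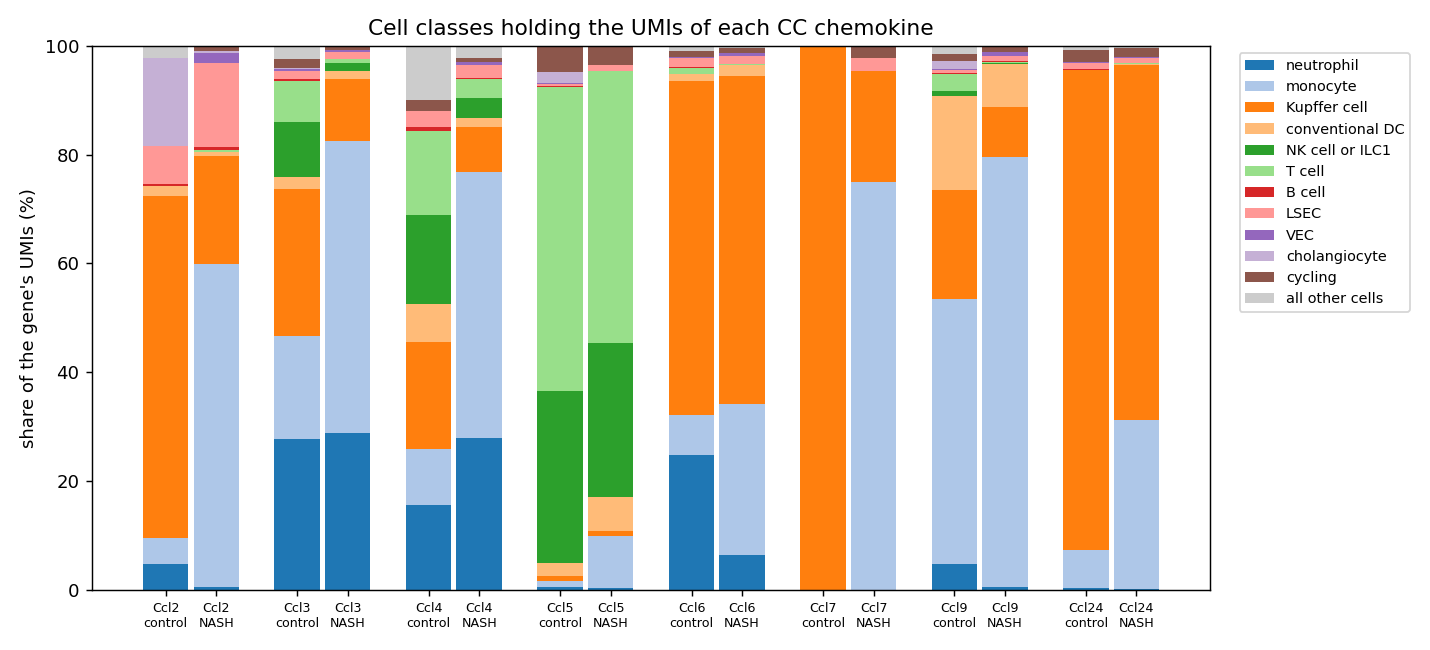
Share of each CC chemokine's UMIs (%) held by each cell class, in the control and the NASH library, with all other kept cells in grey. The monocyte part is taller in the NASH library for all 8 genes, from 48.7% to 78.9% for Ccl9 and from 7.10% to 31.0% for Ccl24. The class itself made up 3.61% and 9.68% of kept cells. Its level did not rise for Ccl24 (267 and 242 CPM) or Ccl6 (1686 and 1529 CPM).

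Ccl3 and Ccl4, inflammatory chemokines also known as MIP-1 alpha and MIP-1 beta, were far higher in neutrophils of the NASH library. Ccl3 was at 522 CPM (470 to 579) in 446 control neutrophils and at 3131 CPM (2879 to 3399) in 118 NASH neutrophils, a log2 ratio of 2.58 (2.39 to 2.78). Ccl4 was at 247 CPM (212 to 287) and 3125 CPM (2874 to 3393), a log2 ratio of 3.66 (3.41 to 3.91). Cells with a Ccl3 UMI made up 19.5% (15.9 to 23.5) and 56.8% (47.3 to 65.9), and after thinning to 1000 UMIs 17.3% and 53.7%. LSEC, taken as background, had a Ccl3 UMI in 0.725% and 1.75% of cells at median depths of 1608 and 1217 UMIs, against 1478 and 1409.5 in neutrophils.

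Cluster 4 held most of this class in both libraries, but a smaller part of it in the NASH library. Cluster 4, led by Cxcr2, Nlrp12 and AC110211.1, had 432 control and 70 NASH cells, and cluster 17, led by Acod1, Mreg and Csf1, had 14 and 48. The name of cluster 17 is the weaker, with 7 neutrophil markers among its 50 leading genes and 1, Acod1, among the first 10. Cluster 4 had 10 and 4. The NASH cell of cluster 17 richest in Ccl3 held 36 UMIs of neutrophil and 67 of lipid-associated macrophage markers. Within cluster 4 the log2 ratio was 1.11 (0.77 to 1.43) for Ccl3 and 0.75 (0.18 to 1.26) for Ccl4 (13.5% of genes were called higher and 13.5% lower). Within cluster 17 it was 1.78 (1.33 to 2.29) for Ccl3 and 2.91 (2.32 to 3.65) for Ccl4 (33% of genes were called higher), and all 21 control Ccl4 UMIs came from 1 cell. Both genes were thus higher in the NASH library within each cluster, by less than in the whole class.

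In the NASH library cluster 17 was at a higher level of both genes than any of the 11 classes. Ccl3 stood at 1617 CPM (1160 to 2193) in its control and 5619 CPM (5121 to 6152) in its NASH cells, and Ccl4 at 828 CPM (513 to 1266) and 6389 CPM (5857 to 6956). Of its NASH cells, 91.7% held a Ccl3 UMI and 72.9% a Ccl4 UMI. Thinned to 1000 UMIs, 93.5% of the 31 cells with Ccl4 also held Ccl3, against 53.6% of those without. In cluster 4 these shares were 28.9% and 17.4%.

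**Figure D4:**
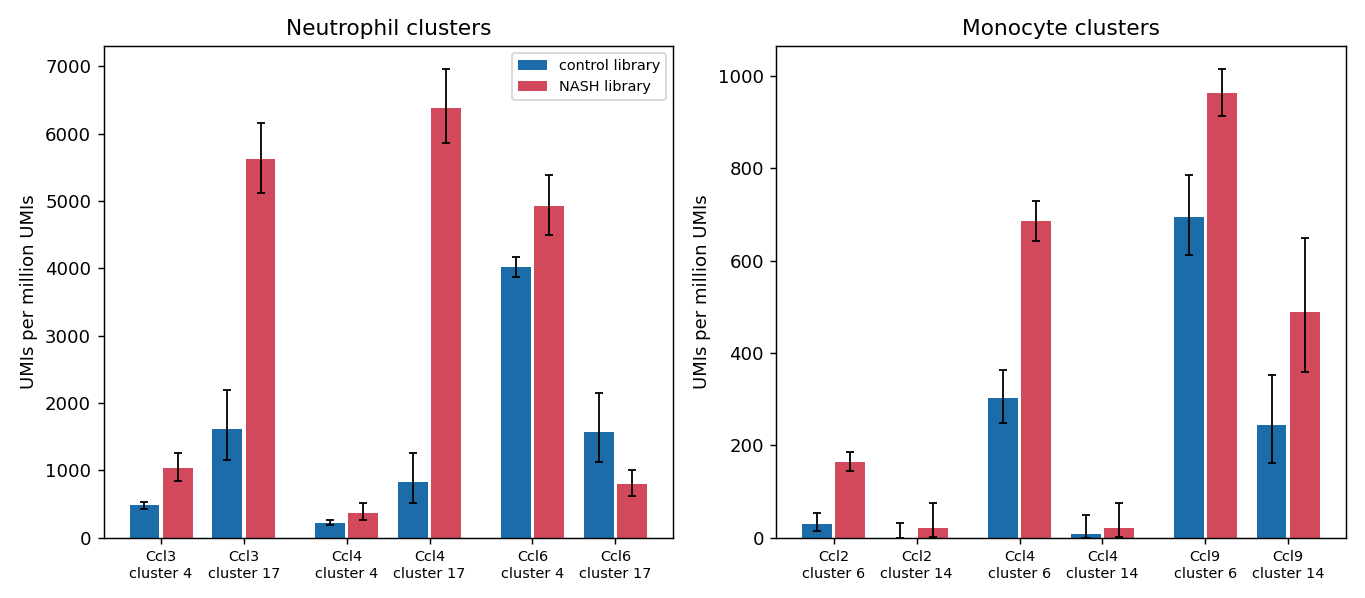
CPM of 3 CC chemokines in each of the neutrophil clusters (left) and of 3 in each of the monocyte clusters (right), in the control and NASH libraries, with exact Poisson 95% intervals. Ccl3 and Ccl4 stand at 5619 and 6389 in the NASH cells of cluster 17, where Ccl6 is at 794.

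A list of other inflammatory genes had a positive median ratio in the neutrophil class as a whole. Its median was close to that of all genes within cluster 4 and negative within cluster 17. Of 24 measured genes of a list for NF-kB and inflammatory response, 13 were at least 1.5-fold higher and 3 lower in NASH neutrophils, with a median log2 ratio of 0.70 against -0.04 over all 2290 genes tested there, of which 19.9% were higher. Irak2, a kinase of interleukin-1 receptor signalling, was 2.86 higher, Il1rn, the interleukin-1 receptor antagonist, 2.34, Icam1, an adhesion molecule, 2.20, and Marcksl1 1.83. Within cluster 4, 2 of 19 genes of the list were higher and 4 lower, with a median of -0.019 against -0.0046 over all genes. Within cluster 17, 3 of 14 were higher and 10 lower, with a median of -0.88 against 0.077 over all genes. In the neutrophil class as a whole, 4 of 22 immediate early genes raised by tissue digestion were higher and 3 lower, with a median of -0.11. Also over the whole class, the summed level of the 17 neutrophil markers was 50278.5 CPM (control) and 43150.3 CPM (NASH). That of the monocyte markers was 6150.2 and 7522, that of the lipid-associated macrophage markers 2913 and 6856, and that of the LSEC markers 1431 and 5189. The part of these in the Ccl3 and Ccl4 difference was not tested.

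Monocytes also held much of both genes. Ccl4 was at 232 CPM (191 to 279) and 644 CPM (604 to 685), a log2 ratio of 1.46 (1.19 to 1.77), and Ccl3 at 510 and 689 CPM, a log2 ratio of 0.43 (0.23 to 0.64) that is under 1.5-fold. In the finer clustering the direction parted. In the F13a1 cluster Ccl3 was 1.09 (0.80 to 1.41) and Ccl4 2.32 (1.89 to 2.83) higher in the NASH library. In the Cx3cr1 cluster Ccl3 was at 953 CPM in control and 341 CPM in NASH cells, a log2 ratio of -1.48 (-1.86 to -1.10), and Ccl4 at 618 and 364 CPM, -0.77 (-1.18 to -0.33). These control values rest on 13 cells with a UMI of each gene, and the difference between the clusters was not tested.

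Ccl3 was lower in the NASH library in NK cells or ILC1, while its lower value in T cells rested largely on cells with other markers. The difference from neutrophils was not tested. In NK cells or ILC1, which release Ccl3 and Ccl4 on activation, Ccl3 was at 660 CPM (552 to 782) in 115 control cells and 224 CPM (149 to 324) in 76 NASH cells, a log2 ratio of -1.54 (-2.20 to -0.96). It was the 1 member of 3 tested there that was called lower (6.52% of genes were lower and 7.81% higher). Ccl4 was at 888 and 624 CPM, a log2 ratio of -0.50 (-0.91 to -0.12). T cells had a Ccl3 log2 ratio of -2.05 (-3.06 to -1.25; 5.69% of genes were called lower and 5.36% higher), but 64 of their 96 control UMIs came from 3 cells that carried 17 to 24 UMIs of basophil or mast cell markers and at most 2 of T cell markers.

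Ccl3 and Ccl4, whose levels had the closest likeness among members (Pearson r of 0.934 over 22 points of class and library, which share depth and libraries), separated in some cells. Plasmacytoid DC held Ccl4 at 614 CPM (502 to 743) in 55 control cells and 555 CPM (403 to 745) in 25 NASH cells, while their Ccl3 was at 20.0 CPM in both libraries together. Ace-led monocytes (cluster 14) showed the reverse, with Ccl3 at 305 CPM (212 to 424) and 291 CPM (193 to 420) and Ccl4 at 14.2 CPM in both libraries together. In conventional DC, Ccl4 was lower in the NASH library, at 62.7 CPM against 143 CPM, a log2 ratio of -1.18 (-1.82 to -0.59), the 1 member of 5 called lower (6.26% of genes were). The richest control cells held 23 and 10 of the 77 UMIs. They carried 120 and 104 UMIs of monocyte markers beside 31 and 51 of conventional DC markers, so the ratio leans on these cells. Ccl3 in conventional DC was at 52.0 CPM (control) and 59.0 CPM (NASH).

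**Figure D5:**
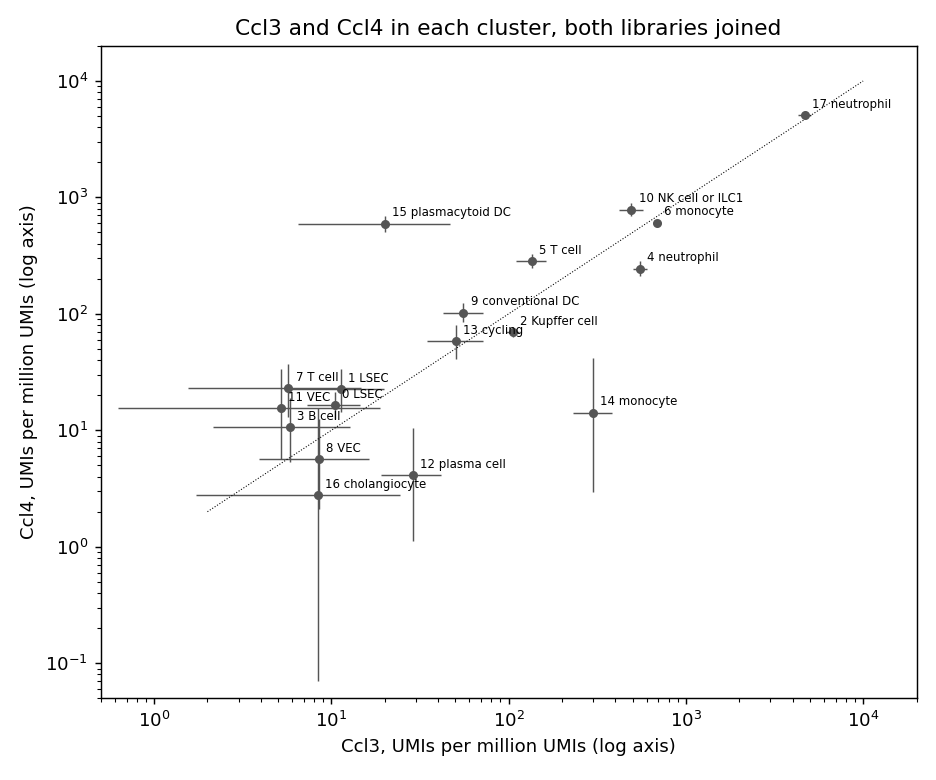
Ccl3 against Ccl4 in each cluster, in CPM on log axes, both libraries joined, with exact Poisson 95% intervals and a dotted line of equality. Plasmacytoid DC (cluster 15, Ccl4 at 595) stand above it and Ace-led monocytes (cluster 14, Ccl3 at 299) below it.

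Ccl5, or RANTES, a product of cytotoxic lymphocytes, was the most abundant member beside Ccl6, and its ratio in NK cells or ILC1 was under 1.5-fold. NK cells or ILC1 were at 17282 CPM (16713 to 17865) and 17850 CPM (17117 to 18606), and 99.1% and 98.7% of their cells held a UMI. B cells, as background, held one in 2.07% of 627 control cells. T cells were at 6595 and 7277 CPM, a log2 ratio of 0.14 (0.08 to 0.20).

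The T cells were not alike. In the finer clustering, a cluster led by Cd8b1, Cd8a and Eomes was at 15341 CPM, one led by Cd40lg, Cxcr6 and Atp8a2 at 3582 CPM and one led by Cd5, Cd4 and Il7r at 1191 CPM, both libraries joined, with intervals that do not overlap. The Cxcr6 cells (cluster 7 of the main clustering) held Ccl5 at 2836 CPM (2677 to 3002) on the control diet and at 4701 CPM (4450.2 to 4962) on the MCD diet, a log2 difference of 0.73 (0.61 to 0.84). Ccl5 was the only member with enough UMIs to be tested there, and it was called higher (6.51% of genes were, and 7.4% were lower). The Cd8b1 cluster was at 17363 and 12645 CPM, a log2 ratio of -0.46 (-0.53 to -0.39). In cluster 5, the other T cell cluster, the log2 ratio was 0.06 (-0.01 to 0.12).

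With both libraries joined, cycling cells followed NK cells or ILC1 and T cells in Ccl5 level, at 1210 CPM (1126 to 1299). A UMI was found in 17 of 57 control and 10 of 43 NASH cycling cells. The 4 richest control cells carried 94 to 123 UMIs of NK cell markers. The richest NASH cell held 48 of 268 Ccl5 UMIs, beside 107 UMIs of NK cell markers. In the other classes described here, few cells held much of the Ccl5. Monocytes were at 228 CPM (187 to 275) and 489 CPM (455 to 526), a log2 ratio of 1.10, and 1 NASH cell held 196 of the 756 UMIs. Conventional DC were at 491 and 918 CPM, a log2 ratio of 0.90 (0.69 to 1.13) (6.49% of genes were called higher), in 19 and 20 cells, 1 of which held 131 of the 498 NASH UMIs. In control cholangiocytes 223 of 236 UMIs came from 1 cell that carried 58 UMIs of T cell markers and 47 of NK cell markers, and the ratio there is called lower (8.51% of genes were lower and 8.21% higher). In NASH LSEC, 44 of 84 UMIs came from 1 cell with 27 UMIs of T cell markers.

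By count, 4 of 7 members tested in monocytes were called higher in the NASH library, Ccl2, Ccl4, Ccl5 and Ccl9 (12.3% of genes were), and 0 lower (15% of genes were). In neutrophils 3 of 4 were called higher, Ccl3, Ccl4 and Ccl5, and 0 lower, where 19.9% of genes were higher and 19.9% lower. For neutrophil Ccl5 this rests on 28 NASH UMIs in 4 cells. In LSEC 3 of 4 were called higher, Ccl2, Ccl4 and Ccl5 (4.69% of genes were higher and 5.68% lower), at levels of 38.8 CPM or less, and 0 were called with cells thinned to 1000 UMIs. In Kupffer cells 1 of 7 was called higher, Ccl9 (5.06% of genes were higher and 3.35% lower). The median log2 ratio of the 7 members in monocytes was 0.67, against -0.07 over the 4712 genes tested, and 2 of the 4 monocyte calls were left without the 10 richest cells of each gene in each library. In the monocyte class the summed level of the 14 monocyte markers was 43799 CPM (control) and 26647 CPM (NASH). That of the 10 Cx3cr1 macrophage markers was 16720 and 22112, near the monocyte markers in the NASH library. The 10 lipid-associated macrophage markers were at 3349 and 12652, and the 15 Kupffer cell markers at 1995 and 4790. Their part in the monocyte values was not tested.

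Ccl6, a myeloid chemokine, was the member found in the most cells, in 28.1% of control and 28.7% of NASH cells. Kupffer cells held 61.5% and 60.3% of its UMIs, at 2149 CPM (2099 to 2201) and 2229 CPM (2169 to 2291), and 93.5% and 94.1% of Kupffer cells had a UMI. After thinning to 1000 UMIs these shares were 78.4% and 77.9%, and 1.83% of control B cells. Neutrophils were higher per UMI, at 3932 CPM (3785 to 4082) and 3037 CPM (2789 to 3302), a log2 ratio of -0.37 (-0.51 to -0.24).

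Ccl6 and Ccl3 went apart within the neutrophils. Cluster 4 held Ccl6 at 4021 CPM (3871 to 4177) and 4928 CPM (4500 to 5386), a log2 ratio of 0.29. Cluster 17 held it at 1577 CPM (1127 to 2148) and 794 CPM (614 to 1010), a log2 ratio of -1.0 (-1.58 to -0.39; 25.4% of genes were called lower). The class ratio thus had another sign than that of cluster 4, which holds most neutrophils of the control library.

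Ccl9, which lies beside Ccl6, was led by another class. Monocytes held 48.7% (44.6 to 52.9) of its UMIs in the control library and 78.9% (77.0 to 80.8) in the NASH library, and neutrophils were at 40.5 and 55.0 CPM. Monocytes were at 587 CPM (520 to 659) and 932 CPM (885 to 982), a log2 ratio of 0.67 (0.48 to 0.86). Within cluster 6 the ratio was 0.47 (0.28 to 0.67), under 1.5-fold, and within the Ace-led cluster 14 it was 0.99 (0.30 to 1.73; 7.26% of genes were called higher and 8.6% lower). Kupffer cells were at 36.8 CPM (30.4 to 44.2) and 73.3 CPM (62.7 to 85.2), a log2 ratio of 0.99 (0.64 to 1.35). Conventional DC followed monocytes in level, at 188 and 264 CPM.

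In the finer clustering Ccl9 was at 1190 CPM (1132 to 1251) in the F13a1 cluster and 191 CPM (155 to 233) in the Cx3cr1 cluster, both libraries joined. Cells of cluster 6 that held Ccl9 after thinning also held Ccl6 in 72.7% of cases, against 48.7% of cells without Ccl9.

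Cells with basophil or mast cell markers were a small further source. 6 control cells and 1 NASH cell held at least 10 UMIs of the 8 basophil or mast cell markers, a rule chosen after the values were seen, and all but 1 lay in the T cell class. The 6 control cells held Ccl6 at 9306 CPM (7734 to 11104), Ccl3 at 5599 CPM (4396 to 7029), Ccl4 at 5599 CPM and Ccl9 at 1286 CPM (749 to 2059). Mcpt8, a basophil protease, had 6 UMIs in them and 1 in all other control cells. The NASH cell held Cpa3 and Fcer1a and no Mcpt8, and of the members 1 Ccl2 UMI. These cells set the T cell value of Ccl6, since 105 of 120 control UMIs lay in 4 of them, and the log2 ratio of -2.73 in T cells rests on them.

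Ccl24 was a Kupffer cell gene. Of its UMIs, these cells held 88.1% (86.5 to 89.6) on the control diet and 65.4% (62.6 to 68.1) on the MCD diet. Their level was 508 CPM (483 to 534) and 342 CPM (319 to 367), a log2 ratio of -0.57 (-0.69 to -0.45), just under 1.5-fold. A UMI was found in 74.1% and 54.1% of Kupffer cells, and in 31.7% and 27.0% after thinning to 1000 UMIs, since control Kupffer cells were deeper, with a median of 6140 against 4548 UMIs. Thinned, the log2 ratio was -0.38.

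Monocytes were at 267 CPM (223 to 318) and 242 CPM (218 to 268), in 8 of 152 and 46 of 359 cells. In the control library 121 of the 129 UMIs lay in 4 cells. The 4 richest NASH cells carried 83 to 237 UMIs of Kupffer cell markers beside 21 to 96 of monocyte markers, so the monocyte class holds cells with markers of both.

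The genes most like each member over the 22 points come from the same class levels that set the leading classes. They describe which genes share a member's pattern and are no separate evidence for the division. Ccl24 was closest to C1qa (r of 0.971), C1qb and Fcgr1, genes of macrophages. Ccl6 was closest to Igsf6 (0.986), Hk3 and Cd300ld, and Ccl5 to Cst7 (0.924) and Cxcr3. Ccl9 was closest to Mcub (0.871) and Lgals3, Ccl2 to Arg1 (0.823) and Noct, Ccl7 to Pla2g2d (0.902) and Dppa3, and Ccl3 to Ccl4 and then Lilr4b (0.915). Some of these rest on few UMIs, with 66 of Arg1, 56 of Ccl7, 64 of Pla2g2d and 63 of Dppa3 over all points.

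Of the other CC chemokines, 3 reached 50 UMIs in a class. Ccl22, a ligand of Ccr4, was in conventional DC at 96.6 CPM (72.2 to 127) on the control diet and 465 CPM (409 to 526) on the MCD diet, a log2 ratio of 2.25 (1.83 to 2.73), and in NASH monocytes at 69.3 CPM. Ccl17, the other Ccr4 ligand, was in conventional DC at 243 CPM (204 to 289) on the control diet and 35.0 CPM (21.1 to 54.7) on the MCD diet, a log2 ratio of -2.76 (-3.57 to -2.10), in 6 and 5 cells. Ccl25 was in Kupffer cells at 10.6 CPM.

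The receptors had leading classes of their own. Ccr1 was highest in neutrophils, at 1728 CPM (control) and 1018 CPM (NASH), the class that also leads for Ccl6 in each library. Ccr2 was highest in monocytes, at 3286 and 1757 CPM, a log2 ratio of -0.90 (-0.99 to -0.81), and in conventional DC, at 1779 and 1729.6 CPM. Ccr3, the receptor of Ccl24, had 67 UMIs over both libraries. Ccr7, which guides dendritic cells to lymph nodes, was 1.94 higher (1.43 to 2.52) in NASH conventional DC, and Ccrl2, a relative that binds chemerin, 1.28 higher (1.11 to 1.45) in NASH neutrophils as a class. Within the neutrophil clusters the log2 ratio of Ccrl2, one of the leading genes of cluster 17, was -0.24 in cluster 4 and 0.076 in cluster 17, both under 1.5-fold.

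Most members were concentrated in few cells. The richest 1% of cells held 80.8% and 74.8% of Ccl2 UMIs in the control and NASH libraries, 54.1% and 56.2% of Ccl4, 43.8% and 45.9% of Ccl3, 51.1% and 43.9% of Ccl9, and 16.7% and 20.9% of Ccl6. The most UMIs that any 1 NASH cell held were 196 of Ccl5, 119 of Ccl6, 105 of Ccl4, 94 of Ccl3 and 93 of Ccl9, and some of these maxima share a cell. Those of Ccl3 and Ccl4 lay in a monocyte-class cell of 8449 UMIs, with 352 UMIs of Cx3cr1 macrophage, 100 of monocyte and 82 of neutrophil markers. Those of Ccl5 and Ccl9 lay in a monocyte-class cell of 17258 UMIs, with 460 of lipid-associated macrophage and 386 of monocyte markers.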

How the data were processed

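Liver nonparenchymal cells of 1 control and 1 NASH library, each a pool of 3 mice, were captured on the BD Rhapsody platform by the protocol, although a label names 10x Genomics. The deposited files hold raw UMI counts per gene and cell that the authors made with the BD whole transcriptome pipeline on GRCm38, without normalization. The 16383 genes of each table end alphabetically at Rad54l2, later genes were not analysed here, and a mitochondrial limit could therefore not be applied. The NASH table has no header, so its columns were named in the order of the control table. Within 200 columns around each member, the totals of both libraries correlated across genes at 0.971 to 0.972 in this order and at no more than 0.150 after a shift of 1 column. 21 numeric cell labels occur in both libraries.

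Kept cells held 500 to 21822 UMIs, summing to 11399278 (control) and 9249745 (NASH). They were clustered in Seurat 5.3.0 (R 4.3.3) with log normalization, 2000 variable genes without the 12 Ccl genes among them, 50 principal components and resolution 0.6. Scrublet in scanpy 1.11.5 marked 1.24% of control and 0.0809% of NASH cells as doublets, so few in the latter that the caller may not have worked, and doublets were kept. UMIs were summed per class and library, and log2 ratios carry 0.5 added UMI and the interval of an exact binomial share. The ratio step was tested on simulated data. Python 3.11.15, numpy 2.4.6, scipy 1.17.1, pandas 2.3.3 and edgeR 4.0.16 (scaling factors only) were used. Likeness is Pearson's r of log2(CPM + 10) over classes and libraries.

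The members and lists were chosen with earlier results of these data known. Besides the 8 members, the genes named are the 5 most like each member, the 3 leading genes of a cluster described, the other CC chemokines and receptors with at least 50 UMIs in a class, and up to 4 genes of a list with the largest ratios. Alternatives covered scaling, cell filters, doublets, thinning, the richest cells, clustering, class assignment, the UMI minimum, the fold and the added count. Some genes that these rules select are not reported here.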

Additional observations from a re-analysis of the deposited data

Results flagged for a closer look

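For 3 of the members, classes were called in opposite directions with intervals that exclude 0. The differences between classes were not tested, since each diet has 1 library. Ccl3 had a log2 ratio of NASH to control of 2.58 in neutrophils, -1.54 in NK cells or ILC1 and -2.05 in T cells, where 3 cells with basophil or mast cell markers held 64 of 96 control UMIs. Ccl4 had 3.66 in neutrophils, 1.46 in monocytes and 0.72 in LSEC, against -1.18 in conventional DC. There the richest control cells held 23 and 10 of 77 UMIs and carried more UMIs of monocyte than of conventional DC markers. The 49 NASH UMIs of LSEC lay in 48 cells. The richest control LSEC held 9 and 9 of 32 UMIs, beside 662 UMIs of Kupffer cell markers in one and 309 of Cx3cr1 macrophage markers in the other. Ccl5 had 1.10 in monocytes, 0.90 in conventional DC, 0.86 in LSEC and 0.84 in neutrophils, against -6.23 in cholangiocytes, where 1 control cell held 223 of 236 UMIs. In LSEC, 1 NASH cell with 27 UMIs of T cell markers held 44 of 84 UMIs.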

How the results depend on the processing

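No paired analysis was possible because each diet has 1 library, and for the same reason no replicate could be left out. Of 230 values under an alternative, 193 stayed within the interval of the reported value or within 1.5 times the count, and no called ratio had another sign. With cells thinned to 1000 UMIs, the ratios over all cells were 1.74 for Ccl2, 0.63 for Ccl3, 0.91 for Ccl4 and -0.47 for Ccl6. Those of Ccl7, Ccl9 and Ccl24 were 3.52 (1 control and 14 NASH UMIs), 1.52 and -0.066. In the leading class the thinned ratios were -0.20 for Ccl6 and -0.38 for Ccl24. In thinned LSEC 0 members were called, but the UMI minimum was applied after thinning, so this count does not show that the ratios were lost. Without the 10 richest cells of a gene in each library, the leading class gave 1.81 for Ccl2, all cells gave -0.12 for Ccl6 and -0.53 for Ccl24, and 2 members were called in monocytes. For Ccl7 this leaves no control UMI, since 9 control cells hold it, so the computed -0.062 (1 NASH UMI, monocytes) and 3.47 (4 NASH UMIs, all cells) reflect the added 0.5 UMI and are no ratio to be read. Without doublets Ccl5 over all cells was at -0.11. With Ccl genes among the variable genes, Ccl3, Ccl4 and Ccl24 were at 2.36, 3.14 and -0.41. With cells placed by marker score, Ccl3, Ccl4, Ccl6 and Ccl24 were at 2.38, 3.07, 0.051 and -0.36, 5 members were called in LSEC, and 5 of 8 members were led by the class named above. The LSEC count was 6 with at least 10 UMIs, 7 with no minimum and 1 at 2-fold. Within clusters, chosen after seeing the data, Ccl3, Ccl4 and Ccl6 were at 1.11, 0.75 and 0.29 in cluster 4 and at 1.78, 2.91 and -1.0 in cluster 17, and Ccl9 at 0.47 in cluster 6 and 0.99 in cluster 14. The causes were not tested. Counting intervals do not cover the spread between mice, which limits every diet value.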
